A study of Mus musculus with 90 samples.

Results

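The mouse ovary in estrus was compared with the ovary in diestrus through the 6 libraries whose label gives the tissue as Ovary, 3 from each phase, out of 90 libraries over 15 tissues. The study sequenced RNA from these tissues in untreated females labelled as C57BL/6 (C57BL/6J in its methods) and as 10 weeks of age, whereas the methods state a younger age. Both groups shared strain, sex and housing and were told apart by the cells of a vaginal smear stained with methylene blue, with estrogen and progesterone in serum as an aid. Each phase had 3 mice as biological replicates per the methods, and how the ovary was freed of neighbouring tissue is not given in the sources used here. In such bulk RNA fewer cells of a type and less RNA per cell cannot be told apart. Values are FPKM, the fragments of a gene relative to its transcript length and to the depth of the library, listed for replicates 1, 2 and 3 in that order.

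In each cycle a set of follicles grows, in which theca cells make androgen under luteinizing hormone and granulosa cells turn it into estradiol under follicle-stimulating hormone. After ovulation the ruptured follicles become corpora lutea, which take up and make cholesterol and secrete progesterone. By diestrus these bodies are established, older ones regress under prostaglandin F2 alpha, and new follicles grow.

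The libraries carried the transcripts that define an ovary. Hsd3b1, which makes progesterone from pregnenolone, lay between 2796 and 4745 FPKM in the 6 libraries. Cyp11a1, which cuts the side chain of cholesterol, lay between 1881 and 3647 FPKM, and the granulosa inhibin subunit Inha between 1224 and 2408 FPKM. The oocyte growth factor Gdf9 was present in every library, at 28.5 to 62.5 FPKM. The table gives no counts, and a rough estimate from the steps between low values put the depth at about 16050000 to 17000000 fragments per library. The paper states a larger number of reads per sample.

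One library stood apart from the rest. Estrus replicate 3 correlated with the other libraries at 0.919 to 0.929 over log2 values of the 13587 genes tested, where the other pairs reached 0.975 to 0.988. It differed from each of them by at least 2-fold at 866 to 1071 genes, against 98 to 361 genes for the other pairs. All 12 markers of oviduct secretory epithelium and all 27 markers of ciliated epithelium were highest in this library. The summed level of the secretory markers was 38.2, 72.3 and 1876 FPKM in estrus and 28.6, 22.6 and 27.8 FPKM in diestrus. The other libraries were not free of these markers, and by this sum estrus replicates 1 and 2 also lay above all 3 diestrus libraries. Ovgp1 alone was 12.4 and 39.7 FPKM in estrus replicates 1 and 2, and 2.35 to 4.67 FPKM in diestrus. The ciliated sum overlapped between the phases, at 46.5 FPKM in estrus replicate 1 and 49.3 FPKM in diestrus replicate 2.

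Marker lists named for further tissues were also raised in this library, and which tissue their RNA came from was not tested. The 9 uterine epithelium markers summed to 519 FPKM in estrus replicate 3 and to 1.96 to 9.52 FPKM elsewhere, led by Prap1 and the iron-binding protein lactoferrin (Ltf). Adipocyte markers summed to 154 FPKM against 8.05 to 41.5 FPKM, and smooth muscle markers to 1104 FPKM against 703 to 821 FPKM. Oocyte markers went the other way, with 24 of 26 lowest in estrus replicate 3 and a sum of 294 FPKM against 497 to 613 FPKM. The part of this admixture in each result was not tested, so results are given with all 6 libraries and with the 5 that remain without estrus replicate 3.

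**Figure D1:**
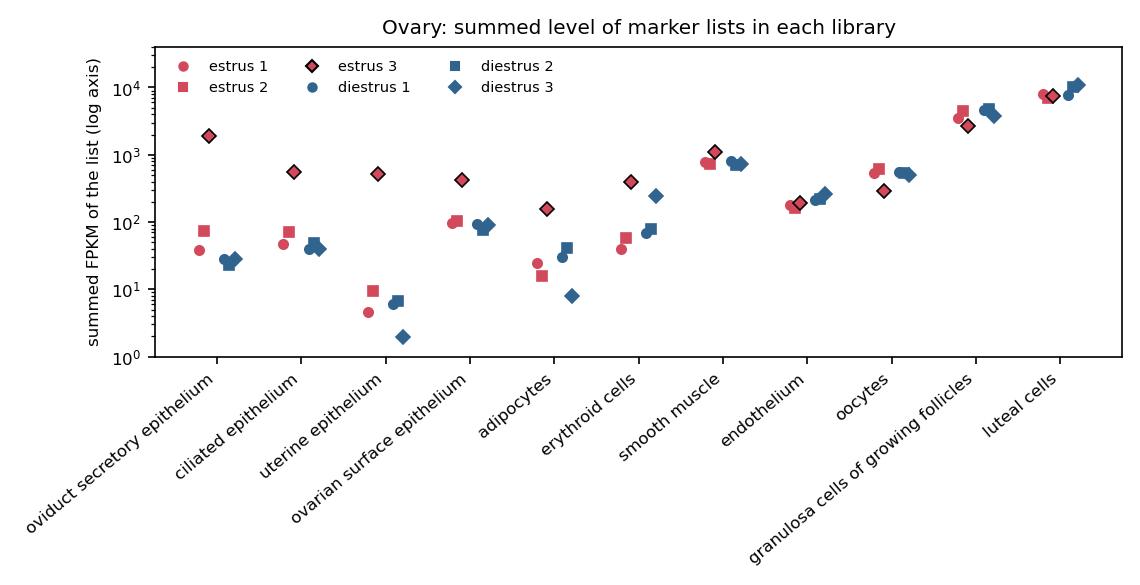
Summed FPKM of 11 marker lists (horizontal axis) in each ovary library, on a log axis; red symbols are estrus, blue symbols diestrus, and the outlined diamond is estrus replicate 3. That library sits far above the other 5 for the oviduct, ciliated and uterine lists and below them for the oocyte list.

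To learn which genes differ between the phases in the ovary, log2(FPKM + 1) was tested gene by gene with limma. With all 6 libraries no gene was called, that is 0% of 13587 genes reached a log2 fold change of at least 1 at an adjusted p of at most 0.05. The smallest adjusted p in limma was 0.188, and 810 genes had an unadjusted p under 0.05, of which 442 were higher and 368 lower in estrus. Without estrus replicate 3, 4 genes (0.0301% of 13280) were called, namely Smarca1 as higher and Fads2, Tulp2 and Lipg as lower in estrus, and 2351 had an unadjusted p under 0.05. When limma instead weighted the libraries by their scatter, estrus replicate 3 received a weight of 0.146 against 0.986 to 2.1 for the others, and 9 genes were called, 3 of them among those 4.

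By size alone the contrast leaned to higher values in estrus. With 6 libraries 180 genes (1.32%) were at least 1 log2 unit higher in estrus with no overlap between the phases, and 22 genes (0.162%) were lower. Estrus replicate 3 was the highest library for 172 of the 180 and exceeded the next library at least 4-fold for 132 of them. Of the 180 genes, 34 kept a difference of 1 log2 unit without it, and 26 of these still averaged 1 FPKM or more in the 5 libraries. Of the 22 lower genes 20 kept that difference, and all 20 still passed the filter. With 5 libraries the split was even, at 50 genes (0.377%) higher and 51 (0.384%) lower. The split of all non-overlapping genes turned with the scaling, from 1104 higher and 758 lower as deposited to 791 and 1138 once the libraries were set to a common median, and to 718 and 1081 after quantile normalization. Of the genes with a difference of at least 1 log2 unit, 117 were higher and 37 lower after quantile normalization.

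**Figure D2:**
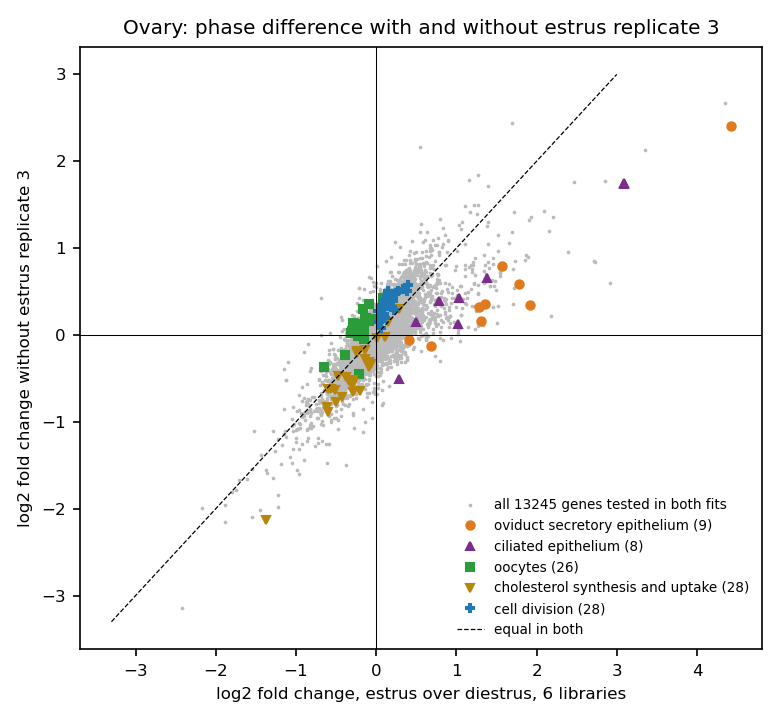
Log2 fold change, estrus over diestrus, of 13245 ovary genes with all 6 libraries (horizontal) and without estrus replicate 3 (vertical); each grey dot is a gene, coloured symbols are members of 5 lists, and the dashed line marks equal values. Oviduct and ciliated markers lie far below the line, oocyte and cell division markers above it, and cholesterol genes mostly below it.

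Genes of oviduct and ciliated epithelium led the largest differences in favour of estrus. Ovgp1, the oviductal glycoprotein that coats the ovulated egg, was 12.4, 39.7 and 1563 FPKM in estrus and 3.53, 2.35 and 4.67 FPKM in diestrus. Estrus replicate 3 was 39.4 times the next library, and the phases did not overlap with or without it. The log2 fold change was 4.42 ± 1.58 (SE, adjusted p = 0.826 in limma) with 6 libraries and 2.40 ± 0.46 (adjusted p = 0.111) with 5. The protease inhibitor A2ml1 followed, at 2.77, 11.3 and 222 FPKM in estrus and at most 0.15 FPKM in diestrus.

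The other leading genes behaved alike. Foxj1, the master transcription factor of motile cilia, was 1.81, 2.31 and 60.4 FPKM in estrus and 0.10, 0.29 and 0.15 FPKM in diestrus. Dynlrb2, a light chain of ciliary dynein, was 2.69, 3.45 and 65.4 FPKM against 0.00, 0.26 and 0.39 FPKM. In both genes all 3 estrus libraries were above all 3 diestrus libraries, with estrus replicate 3 at 26.1 times the next library for Foxj1 and 19.0 times for Dynlrb2. Wfdc18, Ccdc153, Tmem212, Plet1, Dmkn and Cfap65 completed the first 10, all with their highest value in estrus replicate 3. Of these 10 genes, 9 still differed by at least 1 log2 unit without that library, although Foxj1 and Cfap65 then averaged under 1 FPKM and were not tested. With 5 libraries 6 of the 10 were also among the 10 largest of that direction.

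Many of the epithelial markers were tested only because of estrus replicate 3. Of the 12 secretory and 27 ciliated markers, 12 and 23 had a mean of at least 1 FPKM with 6 libraries, and 9 and 8 had one without that library. The 6-library values are therefore a description, with 4 secretory and 18 ciliated markers higher without overlap, against 8.13% of all genes tested, and with median log2 fold changes of 1.36 and 1.25, where the median over all genes was 0.01. With 5 libraries 4 of 9 secretory and 5 of 8 ciliated markers were higher without overlap, against 22.2% of all genes, and the medians were 0.34 and 0.41. Dynlrb2 and Ccdc153, counted here, were at most 0.39 and 0.61 FPKM in diestrus and passed the filter through estrus replicates 1 and 2. The 5-library values are therefore a description as well. The 9 ovarian surface epithelium markers tested had medians of 0.77 and 0.13. The transcription factor Wt1 of this list was 45.1, 41.2 and 49.8 FPKM in estrus and 37.1, 30.1 and 34.1 FPKM in diestrus, and which cells carried it was not tested. Wt1 thus did not overlap in either set, and its log2 fold change moved little, from 0.42 ± 0.12 to 0.35 ± 0.11 (SE).

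**Figure D3:**
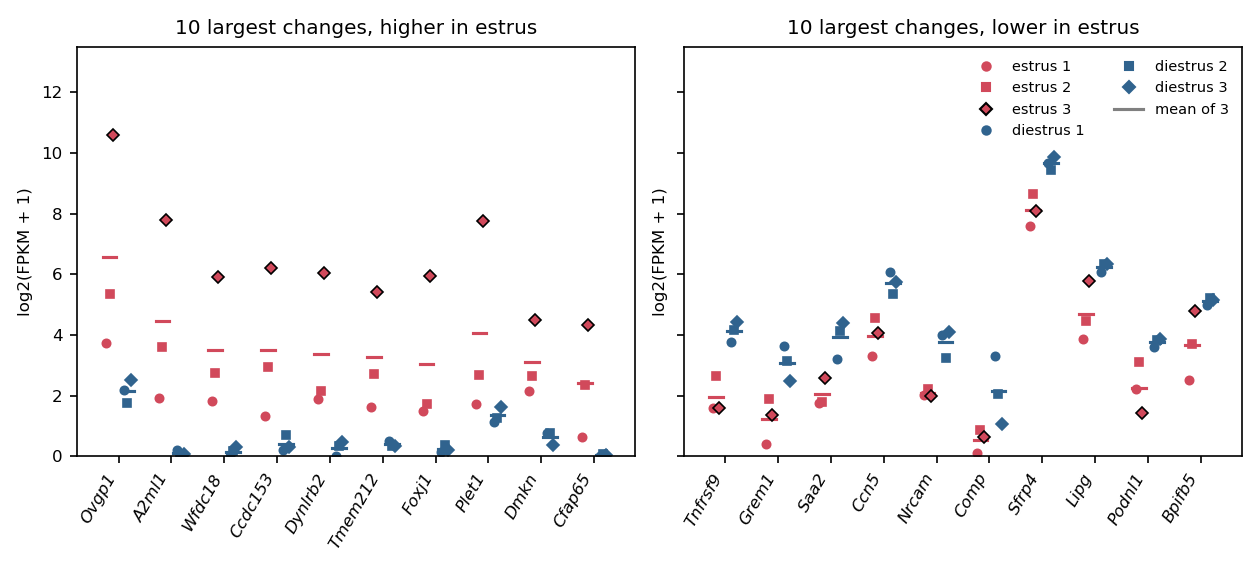
Log2(FPKM + 1) of the 10 largest differences with higher (left) and lower (right) values in estrus among genes without overlap of the phases; each symbol is a library, short lines are means of 3, and the outlined diamond is estrus replicate 3. The left panel shows that library on top in all 10 genes, whereas in the right panel it lies among or beside the other estrus libraries for most.

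With 6 libraries the ciliated genes tested were all higher on average in estrus. The start sites of all 27 members of the list, tested or not, were read for a shared sequence. RFX factors, which act with FOXJ1, bind X-box elements whose conserved part reads GTTGCC. On either strand these letters occurred in a window of 300 bases around a start of 13 of the 23 list members with a RefSeq window (56.5%) and of 14.1% of 27025 genes. A gene counted if any of its windows held the letters. The 27025 are all RefSeq genes with a window and not only the genes tested here. Windows are from GRCm38.p6 and run from 250 bases before to 50 after the start on the strand of the gene. They show GTTGCC or its reverse complement in capitals. Dynlrb2 (chr8:116504765-116505064, + strand) and Ccdc153 (chr9:44240427-44240726, + strand) had the largest changes of the list among genes with a window, and each held 1 match, while Capsl, the next, held none.
Dynlrb2: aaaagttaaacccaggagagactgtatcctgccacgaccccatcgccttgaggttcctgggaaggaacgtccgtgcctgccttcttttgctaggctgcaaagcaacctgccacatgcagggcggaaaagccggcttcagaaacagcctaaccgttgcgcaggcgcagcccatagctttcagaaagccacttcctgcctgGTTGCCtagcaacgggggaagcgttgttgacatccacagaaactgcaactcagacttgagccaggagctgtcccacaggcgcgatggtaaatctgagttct
Ccdc153: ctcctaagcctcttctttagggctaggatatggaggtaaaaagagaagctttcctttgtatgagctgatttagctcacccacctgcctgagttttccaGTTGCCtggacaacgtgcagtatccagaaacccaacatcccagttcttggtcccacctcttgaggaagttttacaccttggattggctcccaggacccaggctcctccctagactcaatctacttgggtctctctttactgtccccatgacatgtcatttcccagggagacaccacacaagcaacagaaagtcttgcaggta
A match is a description of the letters and not of a bound site.

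Genes whose higher level in estrus changed little without estrus replicate 3 differed by less. Mapk13, which encodes the stress kinase p38 delta, was 8.83, 7.77 and 10.2 FPKM in estrus and 2.67, 2.41 and 3.25 FPKM in diestrus. Its log2 fold change was 1.39 ± 0.14 (SE, adjusted p = 0.188 in limma) with 6 libraries and 1.30 ± 0.13 (adjusted p = 0.0634) with 5. Parm1, a mucin-like membrane protein, was 13.9, 12.0 and 14.2 FPKM in estrus and 6.27, 6.15 and 6.00 FPKM in diestrus. In both genes the gap between the phases was wider than the range within either phase. Stard5, a carrier of cholesterol within cells, and Ccdc114 showed the same separation, with log2 fold changes of 0.85 ± 0.11 and 0.77 ± 0.11 (SE). Ccdc114 was highest in estrus replicate 3, at 10.8 FPKM. In the uterus, Ccdc114 was 57.3 FPKM in estrus replicate 3 and 3.26 to 5.32 FPKM in the other libraries. Whether ciliated cells carried it in the ovary was not tested.

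Smarca1, an ISWI chromatin remodelling ATPase, was the only gene called higher without estrus replicate 3. It stood at 78.4, 69.6 and 45.5 FPKM in estrus and at 30.4, 30.3 and 30.0 FPKM in diestrus. The phases did not overlap in either set, and estrus replicate 3 was the lowest estrus library. The log2 fold change was 1.26 ± 0.08 (SE, adjusted p = 0.0188 in limma) with 5 libraries and 1.03 ± 0.20 (adjusted p = 0.643) with 6. Sbsn, a secreted epithelial protein, was 104, 60.9 and 23.6 FPKM in estrus and 25.1, 17.2 and 22.9 FPKM in diestrus, and Cyp11b1, the last enzyme of corticosterone synthesis, was 5.36, 1.51 and 0.10 FPKM against at most 0.23 FPKM. For both, estrus replicates 1 and 2 were above diestrus and estrus replicate 3 was not. Rps27rt, which a near-identical ribosomal protein gene could share reads with, was listed at 0 in 1 library of each phase and is uncertain.

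For genes lower in estrus the difference seldom rested on estrus replicate 3. Sfrp4, a secreted inhibitor of Wnt signalling made by the corpus luteum, was 192, 403 and 273 FPKM in estrus and 822, 697 and 926 FPKM in diestrus. Its highest estrus library was well under its lowest diestrus library, and the log2 fold change was -1.55 ± 0.27 (SE, adjusted p = 0.643 in limma) with 6 libraries and -1.54 ± 0.30 (adjusted p = 0.113) with 5. Tnfrsf9, the costimulatory receptor 4-1BB, was 2.04, 5.33 and 2.04 FPKM in estrus and 12.7, 16.8 and 20.7 FPKM in diestrus. The adhesion molecule Nrcam was 3.03, 3.61 and 3.00 FPKM against 15.0, 8.47 and 16.2 FPKM. Tnfrsf9 and Nrcam had log2 fold changes of -2.17 ± 0.32 and -1.71 ± 0.23 (SE), which stayed at -1.99 and -1.67 without estrus replicate 3.

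Grem1, Ccn5 and Comp were also among the 10 largest differences of this direction. Grem1, an antagonist of bone morphogenetic proteins, was 0.32, 2.66 and 1.57 FPKM in estrus and 11.3, 7.92 and 4.62 FPKM in diestrus. The matricellular protein Ccn5 was 8.87, 22.6 and 15.6 FPKM against 65.9, 39.7 and 52.6 FPKM, and the cartilage matrix protein Comp was 0.08, 0.82 and 0.55 FPKM against 8.99, 3.12 and 1.11 FPKM. None of the 3 genes overlapped between the phases, although the diestrus libraries of Comp were spread widely. Smoc2, a calcium-binding matrix protein named for its small p without estrus replicate 3, was 41.6, 49.5 and 74.0 FPKM in estrus and 98.0, 118 and 110 FPKM in diestrus. The acute-phase protein Saa2, the small leucine-rich protein Podnl1 and Bpifb5 made up the rest of the 10 largest, together with Lipg. Of the 10 largest with 6 libraries, 8 were also among the 10 largest with 5.

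The 3 genes called lower without estrus replicate 3 differed in how that library behaved. Lipg, the endothelial lipase that releases fatty acids from high-density lipoprotein, was 13.6, 20.8 and 54.4 FPKM in estrus and 67.1, 79.5 and 79.8 FPKM in diestrus. Its log2 fold change was -2.10 ± 0.18 (SE, adjusted p = 0.0464 in limma) with 5 libraries and -1.55 ± 0.44 (adjusted p = 0.777) with 6. Fads2, the delta-6 desaturase of polyunsaturated fatty acids, was 31.0, 33.7 and 101 FPKM in estrus and 92.7, 84.6 and 90.3 FPKM in diestrus. For Fads2 estrus replicate 3 was the highest of all 6 libraries, and the log2 fold change of -1.44 ± 0.08 (SE, adjusted p = 0.0172 in limma) with 5 libraries became -0.90 ± 0.42 (adjusted p = 0.838) with 6. Tulp2, a tubby-like protein, was 4.94, 6.29 and 8.53 FPKM against 18.0, 20.4 and 16.7 FPKM and kept its phases apart in both sets, at -1.55 ± 0.13 (SE, adjusted p = 0.0464) with 5 libraries. For 14 of the 51 genes that were lower without overlap in 5 libraries, estrus replicate 3 fell inside the range of diestrus.

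Luteal genes split along more than 1 line. The receptor for prostaglandin F2 alpha, Ptgfr, was 20.1, 20.2 and 33.4 FPKM in estrus and 37.6, 49.4 and 46.3 FPKM in diestrus. The phases did not overlap, and the log2 fold change was -0.86 ± 0.21 (SE, adjusted p = 0.747 in limma) with 6 libraries and -1.09 ± 0.13 (adjusted p = 0.0651) with 5. Hsd17b7, which acts in estradiol and cholesterol synthesis, was 21.7, 15.8 and 91.7 FPKM in estrus and 21.4, 166 and 165 FPKM in diestrus. The receptor for luteinizing hormone, Lhcgr, was 79.5, 88.2 and 260 FPKM against 109, 271 and 255 FPKM. In these 2 genes estrus replicate 3 was well above estrus replicates 1 and 2, and diestrus replicate 1 was the lowest of its group.

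Over the 12 luteal markers, 10 were lower and 2 higher in estrus, 2 were lower without overlap, against 5.58% of all genes tested, and the median log2 fold change was -0.56. With 5 libraries 9 were lower and 3 higher, and the median was -0.42. Of these, 4 were lower without overlap, against 14.8% of all genes, and 1 was higher, against 22.2%. That member was Fdx1, at 459, 457 and 329 FPKM in estrus and 282, 411 and 374 FPKM in diestrus. Of the abundant enzymes of progesterone synthesis, Hsd3b1 was 4235, 3246 and 3294 FPKM in estrus and 2796, 4745 and 4458 FPKM in diestrus, with overlap in both sets. Cyp11a1 was 2239, 1881 and 2553 FPKM against 2417, 3124 and 3647 FPKM, so that 1 diestrus library lay within the range of estrus. Without estrus replicate 3 the phases of Cyp11a1 did not overlap, and its log2 fold change was -0.56 ± 0.19 (SE, adjusted p = 0.224 in limma) against -0.45 ± 0.20 (adjusted p = 0.838) with 6 libraries. Akr1c18, which inactivates progesterone in regressing corpora lutea, ran from 12.3 FPKM in estrus replicate 3 to 235 FPKM in diestrus replicate 1, with wide overlap. Of the 15 steroid synthesis genes tested, 11 were lower, with a median of -0.23 that became -0.04 over 16 genes without estrus replicate 3.

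**Figure D4:**
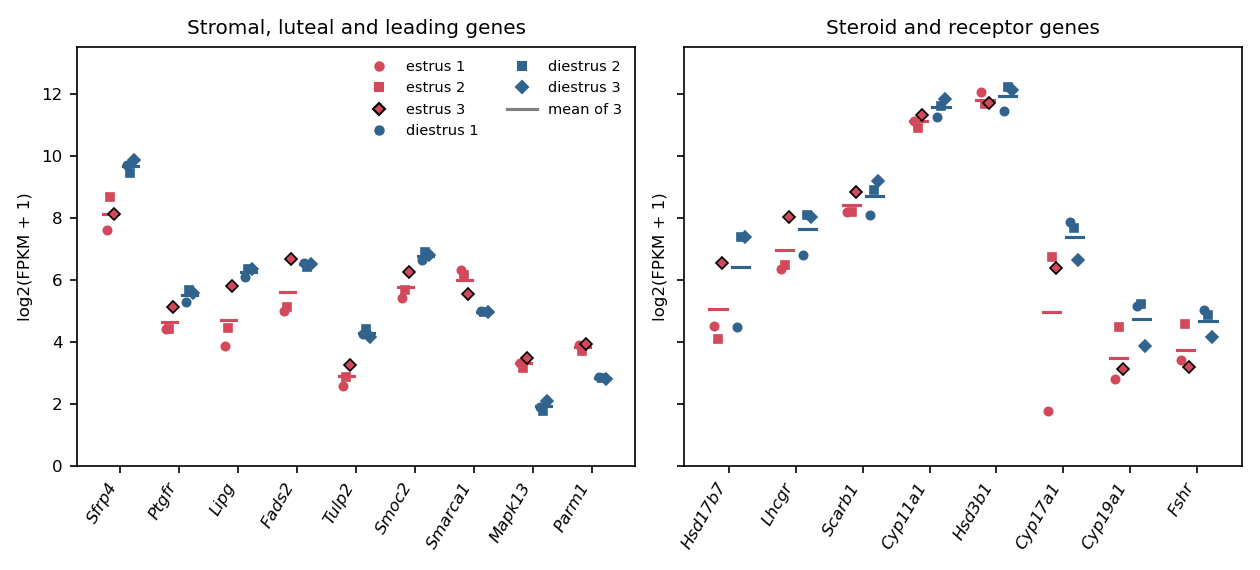
Log2(FPKM + 1) of stromal, luteal and leading genes (left) and of steroid and receptor genes (right) in each ovary library; symbols, colours and lines are libraries, phases and means of 3, and the outlined diamond is estrus replicate 3. Sfrp4, Ptgfr, Lipg, Tulp2, Smoc2, Smarca1, Mapk13 and Parm1 keep the phases apart, whereas every gene of the right panel overlaps when all 6 libraries are taken.

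Genes of cholesterol synthesis and uptake leaned to lower values in estrus. Of 28 tested, 24 were lower with 6 libraries, 4 without overlap, against 5.58% of all genes, and the median log2 fold change was -0.28. With 5 libraries 26 of 28 were lower, 16 without overlap, against 14.8% of all genes, and the median was -0.53, while no member was called in limma and the smallest adjusted p was 0.0831. Fdps, which makes farnesyl pyrophosphate, was 108, 120 and 146 FPKM in estrus and 146, 192 and 200 FPKM in diestrus. Mvd, an enzyme of the mevalonate pathway, was 10.8, 17.1 and 25.6 FPKM against 18.5, 34.0 and 28.0 FPKM, and the lanosterol demethylase Cyp51 was 20.8, 29.0 and 39.1 FPKM against 32.7, 55.7 and 48.1 FPKM. Estrus replicates 1 and 2 were below diestrus in all 3 genes, and estrus replicate 3 reached into or close to the diestrus range.

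The start sites of these genes were read for the CCAAT box, the site of the factor NF-Y, which acts beside the sterol-regulated SREBP factors. CCAAT or its reverse complement stood in a window of 18 of 19 genes of the list with a RefSeq window (94.7%), against 41.1% of 27025 genes and 39.1% of the ciliated list. Mvd (chr8:122443373-122443672, - strand) and Cyp51 (chr5:4104648-4104947, - strand) had the largest differences without overlap in 5 libraries, and Acat2, the next, was the 1 gene without a match. The windows are given as above, with the CCAAT box or its reverse complement in capitals, 2 matches in Mvd and 1 in Cyp51.
Mvd: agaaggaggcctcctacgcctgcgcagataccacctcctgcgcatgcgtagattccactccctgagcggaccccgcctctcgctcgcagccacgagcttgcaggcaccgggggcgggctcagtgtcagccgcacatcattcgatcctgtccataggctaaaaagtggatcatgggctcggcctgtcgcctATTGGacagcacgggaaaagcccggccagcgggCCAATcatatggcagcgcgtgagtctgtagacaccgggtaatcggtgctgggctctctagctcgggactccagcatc
Cyp51: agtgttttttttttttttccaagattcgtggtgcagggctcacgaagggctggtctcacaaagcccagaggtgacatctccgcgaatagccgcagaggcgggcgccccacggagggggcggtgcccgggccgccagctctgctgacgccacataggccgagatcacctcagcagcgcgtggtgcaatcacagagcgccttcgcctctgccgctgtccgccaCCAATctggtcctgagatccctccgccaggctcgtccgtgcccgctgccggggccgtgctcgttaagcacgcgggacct
No binding was measured at either promoter.

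Among follicle genes, the markers of androgen and estrogen synthesis were lower on average but uneven between libraries. Cyp17a1, the theca enzyme that commits progestins to androgens, was 2.39, 105 and 82.8 FPKM in estrus and 231, 203 and 97.7 FPKM in diestrus. Estrus replicate 1 was far below every other library, estrus replicate 2 was above diestrus replicate 3, and the phases overlapped. Insl3, the insulin-like hormone of theca cells, was 13.6, 20.4 and 13.3 FPKM against 33.3, 40.2 and 22.4 FPKM without overlap, with a log2 fold change of -0.96 ± 0.25 (SE, adjusted p = 0.747 in limma). Aromatase, Cyp19a1, was 5.93, 21.3 and 7.64 FPKM in estrus and 34.8, 36.2 and 13.4 FPKM in diestrus, and the receptor for follicle-stimulating hormone, Fshr, was 9.54, 22.6 and 8.07 FPKM against 31.1, 28.2 and 16.6 FPKM. Both overlapped through estrus replicate 2 and diestrus replicate 3. The 4 theca markers, which include Lhcgr of the luteal list, were all lower, at a median of -0.82 with 6 libraries and -1.04 with 5.

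The granulosa list did not move as a block. Of its 16 members 12 were lower with 6 libraries, none without overlap, at a median of -0.18, and without estrus replicate 3 the median was -0.04, with 3 of 16 members higher without overlap, against 22.2% of all genes. Those 3 were Amh, Amhr2 and Ccnd2, where Amh, the hormone of small growing follicles, stood at 240, 226 and 102 FPKM in estrus and 176, 131 and 159 FPKM in diestrus. Inha was 1500, 1997 and 1224 FPKM against 2287, 2408 and 1861 FPKM, with estrus replicate 2 inside the diestrus range. The oocyte list changed sign with estrus replicate 3, from a median of -0.21 with 23 of 26 members lower to 0.09 with 20 of 26 higher. Gdf9 was 53.6, 62.2 and 28.5 FPKM in estrus and 62.5, 56.8 and 51.9 FPKM in diestrus.

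Cell division genes were slightly higher on average in estrus. All 28 members were higher on average in both sets, at a median log2 fold change of 0.15 with 6 libraries, none without overlap, and of 0.40 with 5, where 24 did not overlap against 22.2% of all genes. The proliferation antigen Mki67 was 20.3, 23.2 and 14.8 FPKM in estrus and 14.5, 17.9 and 11.1 FPKM in diestrus, and the survivin gene Birc5 was 39.7, 44.9 and 23.7 FPKM against 30.5, 37.0 and 25.7 FPKM. Estrus replicate 3 was the lowest of the 6 libraries for 16 of the 28 genes. No member was called, and the smallest adjusted p in limma was 0.106 with 5 libraries.

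Endothelial markers were lower on average in estrus, and none was called. With 6 libraries 3 of the 10 were lower without overlap, against 5.58% of all genes, at a median of -0.35 and a smallest adjusted p of 0.777 in limma. With 5 libraries 8 of 10 were, against 14.8%, at a median of -0.40 and a smallest adjusted p of 0.144. Cdh5, the cadherin of endothelial junctions, was 27.9, 26.8 and 31.0 FPKM in estrus and 34.2, 35.4 and 46.0 FPKM in diestrus. The log2 fold change of Cdh5 was -0.41 ± 0.14 (SE, adjusted p = 0.816 in limma). Hemoglobin moved differently, since Hba-a1 was 18.6, 28.7 and 174 FPKM in estrus and 34.8, 37.4 and 104 FPKM in diestrus, high in 1 library of each phase. The median of the 5 erythroid genes tested went from -0.05 to -0.95 without estrus replicate 3, and the share of blood in each library was not measured.

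Of the 21 genes induced by the ovulatory surge of luteinizing hormone, 6 stayed under 1 FPKM in all 6 libraries. Others were abundant, such as Star, which carries cholesterol into mitochondria, at 124 to 257 FPKM. Ptgs2 and Has2, which make prostaglandins and hyaluronan in the ovulating follicle, did not exceed 0.83 and 0.18 FPKM in any library, and Sult1e1 was listed at 0 in all 6. With 6 libraries 12 members were tested, none without overlap, at a median of 0.07. With 5 libraries 3 of 11 were higher without overlap, a share close to the 22.2% of all genes. They were the protease Adamts1 and the transcription factors Runx1 and Cebpb, the last with a log2 fold change of only 0.10 ± 0.07 (SE). The 1 lower member, against 14.8% of all genes, was the transcription factor Egr1 at -0.71 ± 0.30 (SE). Adamts1 was 20.8, 13.7 and 7.65 FPKM in estrus and 9.28, 5.85 and 6.98 FPKM in diestrus, and Runx1 was 21.4, 18.9 and 9.50 FPKM against 12.3, 7.82 and 8.94 FPKM. In these 2 genes estrus replicate 3 fell within the range of diestrus.

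The remaining lists showed smaller or mixed differences. Of the 15 circadian clock genes 12 were higher in estrus, 4 without overlap, against 8.13% of all genes, at a median of 0.23, and with 5 libraries 10 were higher, 5 without overlap, against 22.2%, at a median of 0.15. The period gene Per2 was 9.98, 10.3 and 7.29 FPKM in estrus and 4.77, 5.99 and 6.26 FPKM in diestrus, at a log2 fold change of 0.60 ± 0.16 (SE, adjusted p = 0.775 in limma). The hour of collection was not in the labels. Of 15 immediate early genes 12 were lower, none without overlap, at a median of -0.30. The 17 matrix proteases and inhibitors had a median of -0.06, with Timp1, an inhibitor of metalloproteinases, spread from 34.1 to 454 FPKM over the 6 libraries. The 13 prostaglandin genes tested had a median of 0.05, with cyclooxygenase 1 (Ptgs1) at 4.20, 4.33 and 7.46 FPKM in estrus and 3.47, 2.54 and 3.41 FPKM in diestrus. Medians were 0.05 for 9 macrophage markers, 0.19 for 2 neutrophil markers, -0.21 for 3 lymphocyte markers, 0.30 for 10 smooth muscle markers, 1.05 for 5 adipocyte markers and 1.82 for 4 uterine epithelium markers, and became -0.11, 0.37, -0.15, -0.02, 0.09 and 0.33 without estrus replicate 3.

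The receptors for estrogen, progesterone and prolactin overlapped between the phases in both sets. Esr2, the estrogen receptor of granulosa cells, lay between 28.6 and 46.3 FPKM in the 6 libraries. Esr1, the estrogen receptor of stroma and epithelium, was 7.56, 5.70 and 23.2 FPKM in estrus and 5.77, 6.21 and 6.34 FPKM in diestrus, and the progesterone receptor Pgr was 0.19, 0.39 and 4.35 FPKM against 0.55, 0.40 and 0.27 FPKM. Both were high in estrus replicate 3 only, beside its oviduct and uterine markers. The prolactin receptor Prlr was 59.3, 52.9 and 58.2 FPKM in estrus and 40.4, 65.2 and 77.8 FPKM in diestrus. Over the 12 hormone and growth factor receptors the median was 0.06 with 6 libraries and 0.03 over 11 genes with 5.

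**Figure D5:**
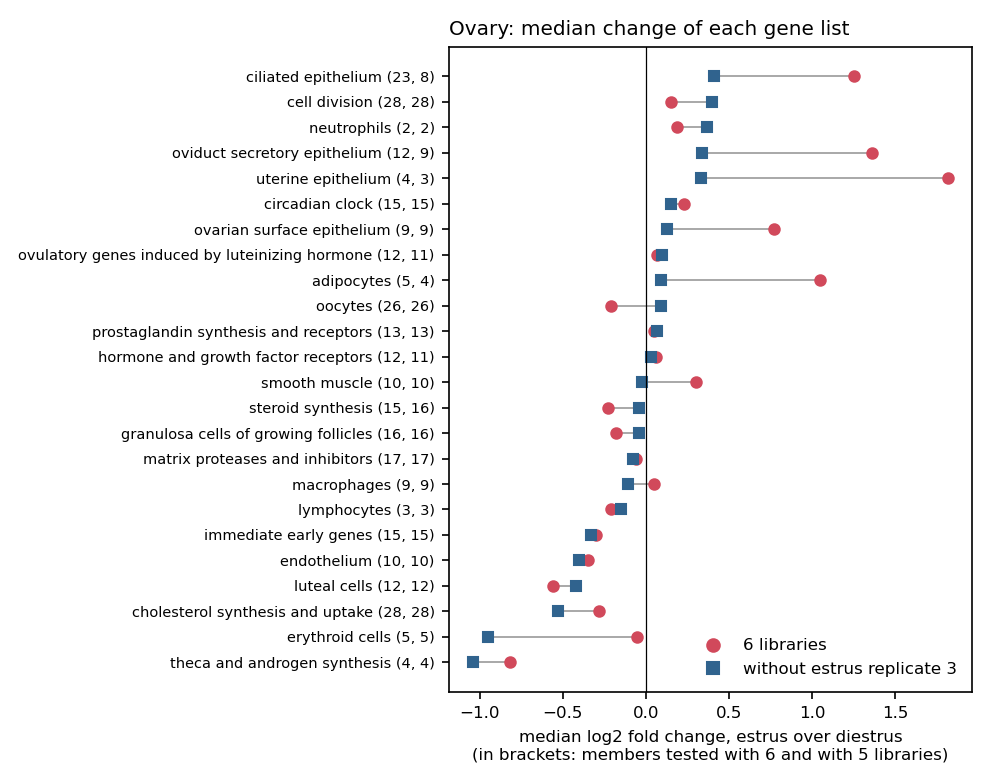
Median log2 fold change, estrus over diestrus, of each of the 24 gene lists (rows) with all 6 libraries (red circles) and without estrus replicate 3 (blue squares); the numbers in brackets are the members tested in each set. The epithelial and adipocyte lists shift towards 0 without that library, the erythroid and cholesterol lists become more negative, and the oocyte list crosses 0.

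To see whether the ovary differed from the uterus, labelled womb, in its response to phase, the difference of the phase effects was tested over the 12 libraries of both tissues. No gene was called, 0% of 14035, with a smallest adjusted p of 0.761 in limma and 529 genes at an unadjusted p under 0.05. Estrus replicate 3 of the uterus also stood apart in oviduct and ciliated genes, with Ovgp1 at 2554 FPKM against 22.3 to 126 FPKM in the other uterus libraries and Foxj1 at 155 FPKM against 0.39 to 4.62 FPKM. Without estrus replicate 3 of both tissues no gene was called either, with 528 at an unadjusted p under 0.05. Nrcam fell short with a difference of -1.57 ± 0.34 (SE, adjusted p = 0.922), and it stood at 0.11 to 0.40 FPKM in the uterus. The corresponding difference for Smarca1 was 1.22 ± 0.38 (adjusted p = 0.992), and the uterus held 1.14 to 3.23 FPKM of it. Mapk13 had log2 fold changes of 1.39 in the ovary and 1.64 in the uterus, a difference of -0.24 ± 0.63 (SE), and the uterus value was 1.18 without estrus replicate 3. No ovarian difference can therefore be called particular to the ovary from these libraries.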

How the data were processed

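RNA from ovaries was sequenced by the study on a BGISEQ-500 instrument. Per the labels, the authors aligned reads with Bowtie2 2.2.5 to GRCm38.p5 and estimated expression with RSEM 1.2.8, and they deposited 1 table of 20414 genes that is taken to hold FPKM, since its header names no unit and its columns sum to 435614 to 488782 in the ovary libraries. No counts are used here, so depth was estimated from the steps of low values of short genes, of which 61.3 to 67.0% came out within 0.2 of a whole read. That was too few to recover reads, and no interval for counting error is given.

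Groups came from the labels. Genes averaging 1 FPKM or more in the libraries compared were tested with limma 3.58.1 in R 4.3.3 on log2(FPKM + 1) with an intensity trend and Benjamini-Hochberg adjustment over all genes tested. Genes were called at a log2 fold change of at least 1 either way and an adjusted p of at most 0.05, and fold changes on this scale understate those of low genes. Every p measures the spread between these libraries, and with 3 against 3 an exact permutation test of a single gene cannot go below 0.1. Genes without overlap of the phases were counted beside the calls. Symbols were matched by Entrez Gene identifier to RefSeq (20265 of 20414), and promoter windows and motifs were read from RefSeq of GRCm38.p6.

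Genes to name were drawn from the 10 largest non-overlapping changes of at least 1 log2 unit in each direction and the 5 smallest p in each direction, each with and without estrus replicate 3, the 3 most abundant members of each of 24 gene lists with any non-overlapping member past 1.5-fold, and 6 hormone receptors, and not all of them are described. Mvd, Mki67 and other list members beyond this were chosen after their values were seen. The libraries, lists and the omission of estrus replicate 3 were chosen with earlier results of these data known. Some lists share members, such as Lhcgr (theca, luteal and receptor lists) and Hsd17b7 (luteal, steroid and cholesterol lists), so their medians are not separate results. Figures used matplotlib 3.10.9.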

Additional observations from a re-analysis of the deposited data

How the results depend on the processing

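No gene was called with a pseudocount of 0.1 FPKM, no filter, a filter of 5 FPKM, a common median, quantile normalization, no intensity trend or no limit on the fold. Library weights gave 3 genes higher and 6 lower, and 1 fit of all 90 libraries, which takes its spread from every tissue, gave 29 and 18. Leaving out 1 library gave 0 to 1 higher and 0 to 3 lower, in both cases with the upper value without estrus replicate 3. Genes at least 1 log2 unit apart without overlap, 180 higher and 22 lower, became 56 higher with the filter of 5 FPKM, 117 higher and 37 lower with quantile normalization, and 46 lower with the pseudocount of 0.1 FPKM, and leaving out 1 library gave 50 to 348 higher and 17 to 51 lower. The 348 came without estrus replicate 1, and lower counts of 47 and 51 came without estrus replicate 2, and without estrus replicate 3 or diestrus replicate 1. The cause was not tested. Without estrus replicate 3, 11 of 116 named genes and the medians of 3 of 24 lists (oocytes, smooth muscle and macrophages) changed sign. Of these genes 2 had differed by more than their SE, and as single libraries were left out Gdf9 ran from -0.53 to 0.02 and Sox17 from -0.05 to 0.67. The median of cell division genes ran from 0.01 without estrus replicate 2 to 0.40 without estrus replicate 3.

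Replicate numbers did not pair the ovary libraries, with correlations of -0.143, 0.092 and 0.086 between the deviations of libraries 1, 2 and 3. The replicate block called 0 genes, with 752 at an unadjusted p under 0.05, and left the 180 and 22 as they were. The test against the uterus called 0 genes with the replicate block and 0 without estrus replicate 3 of both tissues. That block joined estrus and diestrus libraries of the same number, which are different mice, and so did not pair the tissues within a mouse. At this estimated depth 1 fragment in a kilobase of transcript is about 0.0588 to 0.0623 FPKM, so values of that order would rest on single fragments.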
